A study of Mus musculus with 6 samples.

Results

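Cells that carried the C-type lectins Cd209a and Mgl2, high class II antigen-presentation RNA and little complement C1q were examined in dorsal skin of mice by single-cell RNA-sequencing. The libraries came from female C57BL/6 mice of 8 to 10 weeks. Sham libraries came from untreated mice. IMQ libraries came from mice given 62.5 mg of 5% imiquimod cream on the shaved back each day for 4 days. Imiquimod is an agonist of the receptor TLR7 and gives a psoriasis-like inflammation. IMQ+SHP099 libraries came from mice given the same cream and, by gavage, 10 mg/kg of SHP099 each day, an allosteric inhibitor of the phosphatase SHP2. Each group had 2 libraries, and each pooled the skin of several mice, by the study's account fewer in Sham than in the treated groups. The mice within a library could not be told apart. The spread between the 2 libraries of a group was therefore the only replicate error.

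Of 50850 cells kept after limits on unique molecular identifiers (UMIs), genes and mitochondrial share, 336 met the rule, which was 0.661% (95% Clopper-Pearson interval 0.592 to 0.735). The rule asked for at least 2 UMIs of Cd209a and Mgl2 together, and for at least 20 UMIs per 10000 of Cd74, H2-Aa and H2-Ab1 together. It allowed under 5 UMIs per 10000 of C1qa, C1qb and C1qc, under 2 UMIs of Cd207, and none of Xcr1 or Ccr7. It also set limits on keratin (Krt5 and Krt14) and collagen (Col1a2 and Col3a1) RNA. The cells were chosen by their UMIs of these 15 genes, so the values of those genes below are descriptions. They are called Cd209a/Mgl2 cells here, and members in the plots.

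Dendritic cells take up material in the skin, load its peptides on class II molecules and show them to T cells. Those called type 2 conventional dendritic cells depend on the growth factor receptor Flt3 and carry C-type lectins, which bind sugars on microbes and glycoproteins. Cd209a is a mouse homologue of human DC-SIGN, and Mgl2 is a galactose-type lectin of dermal dendritic cells and macrophages. Macrophages of the dermis make C1q, and dendritic cells on their way to the lymph node switch on the chemokine receptor Ccr7. The rule was therefore read beside 2 neighbouring sets. C1q macrophages had at least 20 UMIs per 10000 of the C1q genes, and Ccr7 cells had class II RNA, little C1q and at least 2 UMIs of Ccr7.

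The lectin genes lie in clusters. In GRCm38 (mm10), Cd209a (chr8:3743397-3748984, minus strand), Cd209e (chr8:3847965-3854309, minus strand) and Cd209d (chr8:3871824-3878555, minus strand) neighbour each other. Mgl2 (chr11:70130329-70137550, plus strand) lies beside the related lectin Clec10a (chr11:70156197-70170834, plus strand). The 250 bases before the RefSeq start site of Cd209a, Cd209d, Cd209e and Mgl2 (GRCm38.p6) are shown. The RNA levels of these 4 lectins are followed below in every set of cells. The windows are chr8:3748985-3749234, chr8:3878500-3878749 and chr8:3854287-3854536 on the minus strand and chr11:70130107-70130356 on the plus strand. Capitals mark the longest run of letters shared by the Cd209a, Cd209d and Cd209e windows.
Cd209a: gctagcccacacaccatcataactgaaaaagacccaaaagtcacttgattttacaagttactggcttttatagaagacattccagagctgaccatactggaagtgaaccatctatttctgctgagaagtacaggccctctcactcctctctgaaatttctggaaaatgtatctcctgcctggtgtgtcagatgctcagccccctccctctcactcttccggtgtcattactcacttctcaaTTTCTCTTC
Cd209d: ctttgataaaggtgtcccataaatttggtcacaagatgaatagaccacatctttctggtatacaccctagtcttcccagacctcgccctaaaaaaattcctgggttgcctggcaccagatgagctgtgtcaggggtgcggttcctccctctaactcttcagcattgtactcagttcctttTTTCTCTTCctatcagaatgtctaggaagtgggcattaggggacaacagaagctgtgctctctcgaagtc
Cd209e: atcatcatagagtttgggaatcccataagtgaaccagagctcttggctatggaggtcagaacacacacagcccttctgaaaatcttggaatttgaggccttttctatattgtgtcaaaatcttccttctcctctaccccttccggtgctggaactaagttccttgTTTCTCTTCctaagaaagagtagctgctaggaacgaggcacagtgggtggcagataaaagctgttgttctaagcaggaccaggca
Mgl2: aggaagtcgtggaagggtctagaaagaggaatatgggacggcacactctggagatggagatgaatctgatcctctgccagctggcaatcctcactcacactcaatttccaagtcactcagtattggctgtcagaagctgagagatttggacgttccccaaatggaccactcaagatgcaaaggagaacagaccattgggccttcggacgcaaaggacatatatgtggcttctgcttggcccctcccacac
The shared run TTTCTCTTC began 9, 70 and 85 bases before the start site of Cd209a, Cd209d and Cd209e. It was looked for on both strands after the sequences had been seen, and 271 of 32851 promoter windows of this length (0.825%) held it. The Mgl2 window did not hold these letters. Position by position, with no shift or gap allowed, Cd209a matched Cd209d at 67 of 250 bases (26.8%) and Mgl2 at 59 (23.6%). The shared run lay at different distances from the start sites, so this count cannot say whether the windows are related.

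The libraries differed in ways the groups did not explain. The deposited UMIs per library ran from 53913865 to 188283327. IMQ+SHP099 replicate 1 had the highest median depth, 18263.5 UMIs per kept cell against 5645 to 8854 in the others, and the fewest cells with a UMI of the leukocyte gene Ptprc, 543 against 910 to 1551. Keratin-high cells, with at least 100 UMIs per 10000 of Krt5 and Krt14, numbered 3452 in Sham replicate 1 and 795 in Sham replicate 2. Barcodes shared by a pair of libraries came to 296 in total over all pairs. None of them was a Cd209a/Mgl2 cell in both libraries of a pair.

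The label of a dendritic-like cell was checked on genes outside the rule. Of 12 markers of type 2 conventional dendritic cells, 11 had UMIs in the Cd209a/Mgl2 cells of Sham replicate 1 and 12 in those of Sham replicate 2. The counts were 8 and 11 in C1q macrophages and 11 and 12 in Ccr7 cells, so they did not set the cells apart from Ccr7 cells. The summed level of the markers did not set the cells apart either. It was 1745 and 2781 CPM here, 1826 and 3427 CPM in C1q macrophages and 1281 and 2248 CPM in Ccr7 cells. Flt3 stood at 80.2 and 73.8 UMIs per 1000000 (CPM) in Sham 1 and 2, and at 0 in the C1q macrophages of both. Zbtb46, a transcription factor of conventional dendritic cells, stood at 40.1 and 20.6 CPM. A UMI of Flt3, Zbtb46 or Kmo was found in 20 of 34 cells (58.8%) and in 146 of 289 (50.5%). Keratin-high cells, which should lack these genes, held one in 0.782% and 1.38% at median depths of 9390 and 13789 UMIs, against 7739.5 and 8666 in the Cd209a/Mgl2 cells. One named marker went against the label: Lyz1, a lysozyme gene, had no UMI in the 34 cells of Sham replicate 1, a count that allows up to 12.04 CPM, and stood at 667 CPM in Sham replicate 2.

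Markers of other cell types were low in part. Summed over its list, the resident macrophage set reached 534 and 1314 CPM in the Cd209a/Mgl2 cells of Sham 1 and 2, against 14341 and 25208 in C1q macrophages. Of its genes, Pf4 stood at 0 and 1.5 CPM, against 3156 and 2827 in the C1q macrophages. The mannose receptor Mrc1, also on the list, was present in Sham 2. It stood at 566 CPM in the 226 cells with both lectins, 583 CPM in the 51 with Mgl2 alone and 68.1 CPM in the 12 with Cd209a alone. Langerhans markers summed to 56.2 and 95.5 CPM, B cell markers to 4.01 and 3.37, neutrophil markers to 8.02 and 12.4 and mast cell markers to 4.01 and 2.62. T cell markers summed to 48.1 and 86.9 CPM, and Trbc1 and Trbc2 lay above both neighbour sets in both Sham libraries. Markers of natural killer and innate lymphoid cells summed to 253 and 164 CPM. They reached 7.19 and 12.9 CPM in C1q macrophages and 262 and 201 CPM in Ccr7 cells. The monocyte list summed to 2307 and 6641 CPM, more than the type 2 dendritic list, against 5995 and 10839 CPM in C1q macrophages. Type 1 dendritic markers summed to 257 and 1082 CPM and mature dendritic markers to 586 and 1107 CPM. Keratinocyte markers summed to 457 and 1478 CPM, with 9 of 10 genes detected in each library. Among the 336 cells, 16 held at least 2 UMIs of a marker of another class, and 322 held a UMI of Ptprc.

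Cd209a/Mgl2 cells were found mainly in untreated skin. There were 34 in Sham replicate 1, 289 in Sham replicate 2, 8 in IMQ replicate 1, 1 in IMQ replicate 2, 1 in IMQ+SHP099 replicate 1 and 3 in IMQ+SHP099 replicate 2. Sham skin thus held 323 of the 336 cells (96.1%), and all 4 treated libraries together held 13. Most of the Sham cells came from 1 library, which also separated the Sham replicates from each other.

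**Figure D1:**
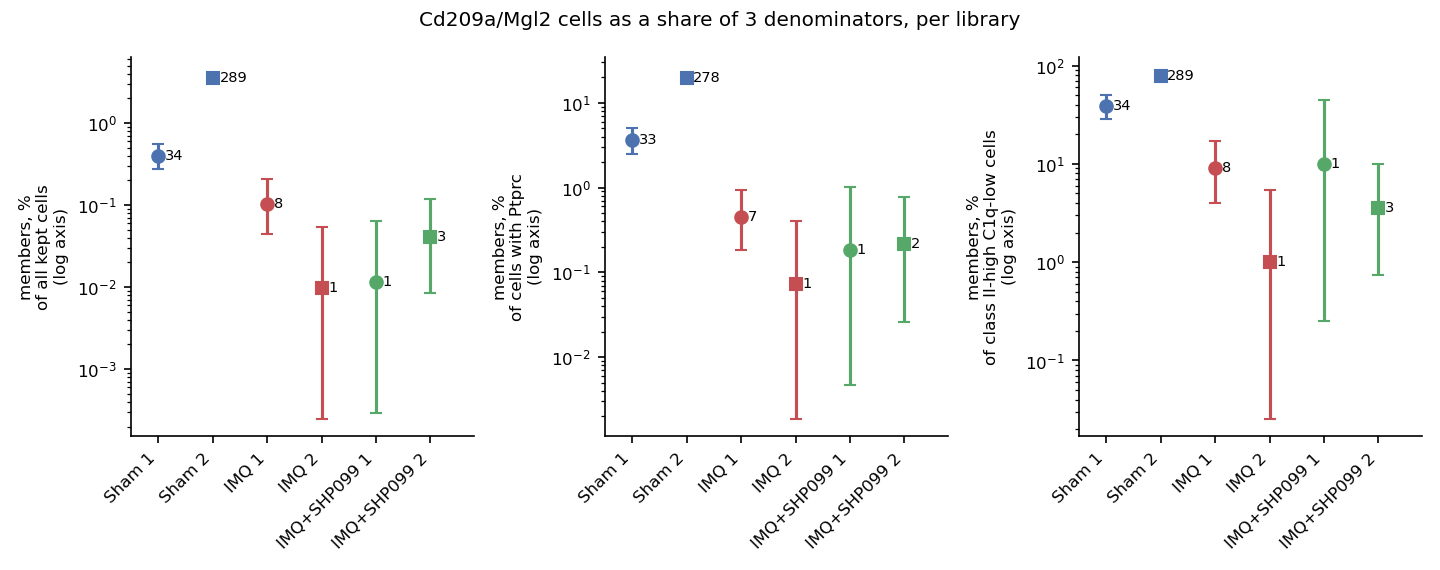
Cd209a/Mgl2 cells as a percentage of kept cells, of cells with a Ptprc UMI and of class II-high, C1q-low cells (log axes, 1 panel each), by library. Points are libraries, bars are 95% Clopper-Pearson intervals, and the number beside each point is its count of cells. Both Sham libraries lie above all 4 treated libraries in every panel, and they lie far apart from each other among kept cells (0.396% and 3.51%).

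As a share of kept cells they made up 0.396% (95% Clopper-Pearson interval 0.274 to 0.553) and 3.51% (3.12 to 3.93) in Sham replicates 1 and 2. The shares were 0.104% (0.0450 to 0.205) and 0.00972% (0.000246 to 0.0541) in the IMQ libraries. In the IMQ+SHP099 libraries they were 0.0115% (0.000291 to 0.0641) and 0.0406% (0.00838 to 0.119). The intervals cover counting error only. The Sham mean, 1.95% ± 2.20 (SD, n = 2), was 34.3 times the IMQ mean of 0.0570% ± 0.0669 (n = 2) and 74.9 times the IMQ+SHP099 mean of 0.0261% ± 0.0206 (n = 2). Both Sham libraries lay above both libraries of either treated group, yet an exact two-sided permutation test gave p = 0.333 for each comparison, the smallest value that 2 against 2 libraries allow. Without Sham replicate 2 the IMQ difference shrank to -0.339 percentage points, and the groups still did not overlap. The ratios moved with the choices: against IMQ and IMQ+SHP099 they were 6.95 and 15.2 without Sham replicate 2, 61.6 and 135 without Sham replicate 1, and 99.8 and 142 with at least 4 UMIs of the pair. The IMQ and IMQ+SHP099 libraries overlapped (exact permutation p = 1).

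The order was the same among cells with a UMI of Ptprc, which was also found in 1.39% to 5.48% of keratin-high cells. Of the Ptprc cells, Cd209a/Mgl2 cells were 33 of 910 (3.63%) and 278 of 1420 (19.6%) in Sham. They were 7 of 1551 (0.451%) and 1 of 1364 (0.0733%) under IMQ, and 1 of 543 (0.184%) and 2 of 934 (0.214%) in IMQ+SHP099. Both Sham libraries again lay above the 4 treated ones (exact permutation p = 0.333), and the treated groups overlapped. Without cells that held at least 2 UMIs of another class, 402 of the 910 Ptprc cells of Sham replicate 1 were left, and the shares were 7.71% and 27.2% in Sham, 0.986% and 0.129% with IMQ, and 0.500% and 0.428% with IMQ+SHP099. After each cell was thinned to 3000 UMIs and shallower cells were left out, the shares of kept cells were 0.385% and 3.88% in Sham, 0.0457% and 0.0219% under IMQ, and 0 and 0.0341% under IMQ+SHP099. The 0 was out of 7557 cells, which allows a share of up to 0.0397%.

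The same rule without the lectin condition kept class II-high, C1q-low cells of every library, so the lectin condition itself could be followed. There were 88 and 373 such cells in Sham, 89 and 100 under IMQ, and 10 and 85 under IMQ+SHP099. Of these, 34 (38.6%) and 289 (77.5%) carried the lectin pair in Sham, against 8 (8.99%) and 1 (1.00%) in IMQ and 1 (10.0%) and 3 (3.53%) under IMQ+SHP099. Apart from IMQ+SHP099 replicate 1, the treated libraries thus held about as many class II-high, C1q-low cells as Sham replicate 1. The means were 58.1% ± 27.5, 4.99% ± 5.65 and 6.76% ± 4.58 (SD, n = 2 each), with no overlap between Sham and either treated group (exact permutation p = 0.333). Since the rule reads Cd209a and Mgl2 RNA, fewer cells of this kind and less lectin RNA per cell cannot be told apart.

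Class II-high, C1q-low cells with no UMI of the lectin pair differed in makeup between the groups. They numbered 48 and 69 in Sham, 79 and 97 under IMQ, and 9 and 79 under IMQ+SHP099. Cells with 1 UMI of the pair were left out. S100a9, a neutrophil and inflammatory myeloid gene, had a UMI in 0% of them in both Sham libraries, in 45.6% and 46.4% under IMQ, and in 77.8% and 22.8% under IMQ+SHP099. Keratin-high cells of the treated libraries held S100a9 in 95.1% to 98.8%, so these shares are not read as expression. A UMI of Flt3, Zbtb46 or Kmo was found in 2.08% and 10.1% in Sham, 29.1% and 33.0% under IMQ, and 11.1% and 25.3% under IMQ+SHP099. Cells that also held B cell genes were then left out of the count but kept in the total. The IMQ shares came to 21.5% and 19.6%, and the other 4 were the same. B cell genes (Cd79a, Cd79b or Ms4a1) were found in 2.08% and 2.90% in Sham, 17.7% and 21.6% under IMQ, and 22.2% and 7.59% under IMQ+SHP099. The part of these other cells in the shares was not tested.

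The lower limit of the lectin pair lay near few of the Sham cells and near most of those of IMQ replicate 1. Just outside it, with 1 UMI of the pair, stood 6 and 15 cells in Sham, 2 and 2 under IMQ, and 0 and 3 under IMQ+SHP099. Just inside it, with exactly 2 UMIs, stood 2 and 13 cells in Sham, 5 and 0 under IMQ, and 0 and 1 under IMQ+SHP099. Most Sham cells sat well above the limit, with medians of 11.5 and 19 UMIs of the pair and highest values of 58 and 103. In IMQ replicate 1 the median was 2 and the highest value 5, and with at least 4 UMIs of the pair its 8 cells became 2 (0.0261% of kept cells). The other parts of the rule also mattered in Sham: of 110 and 674 cells with at least 2 UMIs of the pair, 23 and 245 went over the C1q limit and 35 and 96 held Ccr7 RNA.

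The members differed in which of the 2 lectins they carried. Both were found in 19 of 34 cells (55.9%) in Sham replicate 1 and in 226 of 289 (78.2%) in Sham replicate 2. Cd209a alone was found in 9 (26.5%) and 12 (4.15%), and Mgl2 alone in 6 and 51 (17.6% in each). In treated skin the 8 cells of IMQ replicate 1 held 1 with both, 5 with Cd209a alone and 2 with Mgl2 alone. The cell of IMQ replicate 2 and the 3 of IMQ+SHP099 replicate 2 held Mgl2 alone, and the cell of IMQ+SHP099 replicate 1 held both.

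**Figure D2:**
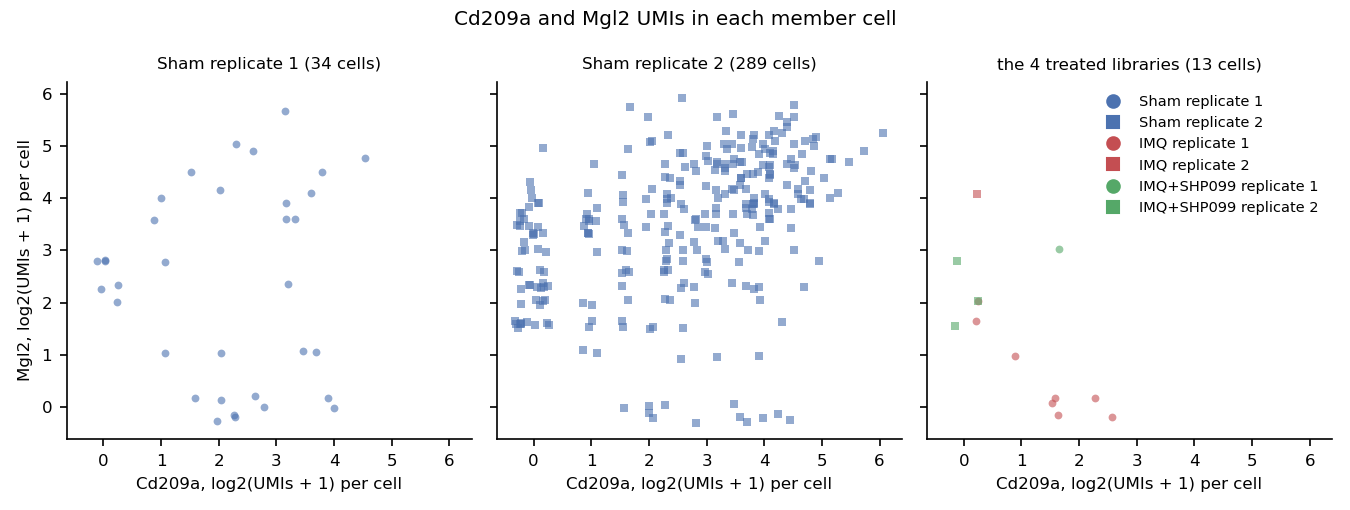
UMIs of Cd209a (x) and Mgl2 (y) in each Cd209a/Mgl2 cell, as log2(UMIs + 1), for Sham 1 (34 cells), Sham 2 (289 cells) and the 4 treated libraries (13 cells). Points are cells, moved slightly at random so that they do not hide each other. Sham 2 holds 226 cells with both genes, and the treated cells sit near the lower left corner apart from 1 IMQ cell with 16 UMIs of Mgl2.

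The lectins were followed in the summed UMIs of the cells of each library. Cd209a stood at 746 and 981 CPM and Mgl2 at 1279.8 and 1589 CPM in Sham 1 and 2. Cd209d and Cd209e, relatives that the rule did not use, were found beside them. Cd209d stood at 1328 CPM in Sham 1 and 619 in Sham 2, and Cd209e at 241 and 243 CPM. Treated cells gave too few UMIs for a level: Cd209d had 0, 1, 3 and 1 UMIs in IMQ 1, IMQ 2, IMQ+SHP099 1 and IMQ+SHP099 2, and Cd209e had none in all 4. A count of 0 allows up to 44.3 CPM in IMQ 1, 157 CPM in IMQ 2 and 125 CPM in IMQ+SHP099 2, all under the Sham levels of Cd209e, though these sums come from 8, 1 and 3 cells. In IMQ+SHP099 1 it allows up to 1442 CPM, so a lower level was not detectable there. Clec10a, the galactose-type lectin beside Mgl2, stood at 285 and 208 CPM in Sham, and its 8 treated UMIs all came from IMQ 1. Reads of 91 bases would not be shared within the Cd209 genes, whereas 109 of 2287 such runs of Mgl2 (4.77%) were also found in its family, so a small part of Mgl2 and Clec10a counts is uncertain.

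Genes of class II presentation were high, in part because the rule asked for it. H2-Eb1, a class II chain outside the rule, stood at 11438 and 9172 CPM in Sham, 7401 and 7683 under IMQ, and 9615 and 6336 under IMQ+SHP099. The values of IMQ 2 and of IMQ+SHP099 1 each come from 1 cell, so no difference between the groups is read from them. For IMQ against Sham the log2 fold change was -0.51 (SE 0.37, edgeR adjusted p = 0.996). H2-DMa and H2-DMb1 encode the chaperone that loads peptide on class II molecules. H2-DMa stood at 1641 and 1287 CPM in the Sham Cd209a/Mgl2 cells, 409.7 and 461 in C1q macrophages and 812 and 1086 in Ccr7 cells. H2-DMb1 stood at 1400.1 and 1062 CPM, against 431 and 378 in C1q macrophages and 547 and 741 in Ccr7 cells. These were the 2 genes of the antigen presentation list that lay above both neighbour sets in both Sham libraries. Ciita, which switches class II genes on, stood at 104 and 90.3 CPM.

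As a frame for such counts, 9774 genes had at least 10 UMIs in the Sham Cd209a/Mgl2 cells. Of these, 616 (6.30%) lay above C1q macrophages and Ccr7 cells in both Sham libraries and 241 (2.47%) lay below. Since all these cells were sorted into sets by their own genes, the counts are a description with no test. Among genes of at least 100 CPM the largest lead was that of Cd7, a surface glycoprotein of lymphocytes. It stood at 774 and 102 CPM, at 0 in both sets of C1q macrophages and at 50.8 and 41.4 CPM in Ccr7 cells. Cd209e came next, with 241 and 243 CPM against at most 155 CPM in any neighbour.

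Transcription factors and surface receptors of dendritic cells were present in both Sham libraries. Cbfa2t3 stood at 221 and 225 CPM in the Cd209a/Mgl2 cells and at 14.4 and 62.7 CPM in C1q macrophages. Irf4, a factor of type 2 dendritic cells, stood at 64.2 and 158 CPM, and Klf4 at 205 and 757 CPM. Irf8, needed by type 1 dendritic cells, was at 8.02 and 22.8 CPM, below both neighbour sets in both libraries (115 to 238 CPM). Kmo, an enzyme of tryptophan breakdown, was the 1 gene of the type 2 list above both neighbours, with 32.1 and 51.7 CPM. The integrin Itgax stood at 60.2 and 106 CPM, against 7.19 and 6.87 in C1q macrophages and 97.6 and 106 in Ccr7 cells. Bcl11a stood at 128 and 88.4 CPM.

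**Figure D3:**
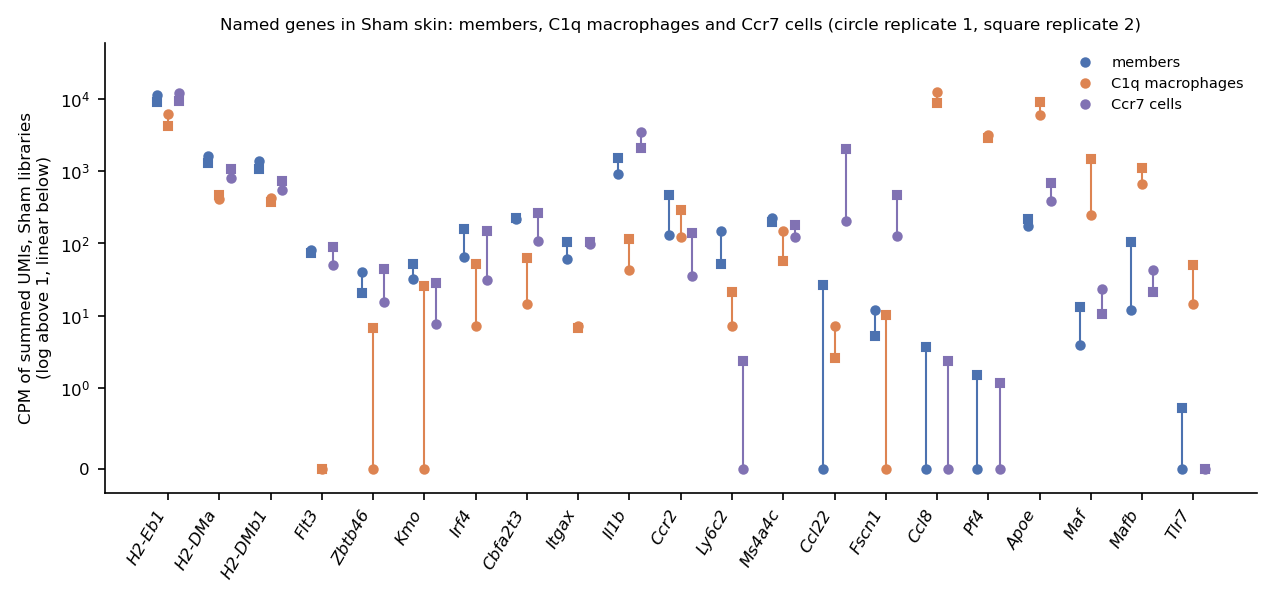
Levels (CPM) of 21 genes in the Cd209a/Mgl2 cells, C1q macrophages and Ccr7 cells of Sham skin. Circles are Sham replicate 1 and squares are Sham replicate 2, each the summed UMIs of that set in that library. Flt3 is at 0 in the C1q macrophages of both libraries, Pf4 and Apoe are high there and low in the Cd209a/Mgl2 cells, and H2-DMa and H2-DMb1 are highest in the Cd209a/Mgl2 cells.

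Monocyte genes were also detected, with a lower summed level of the resident macrophage list than in C1q macrophages. The chemokine receptor Ccr2, which brings monocytes out of the blood, stood at 132 and 469 CPM, and was found in 12 of 34 and 205 of 289 cells. Ly6c2 and Ms4a4c, which mark classical monocytes, lay above both neighbour sets, with 148 and 52.1 CPM for Ly6c2 and 225 and 196 CPM for Ms4a4c. They were the 2 of 14 genes of the monocyte list to do so. The first rested on few cells: a UMI of Ly6c2 or Fcgr1 was found in 6 of 34 and 28 of 289 cells. The richest cell held 18 and 59 such UMIs. Lyz2, the lysozyme of myeloid cells, stood at 1063 and 4572 CPM. The lipid carrier Apoe stood at 177 and 216 CPM, against 6002 and 9155 CPM in C1q macrophages. A UMI of Flt3, Zbtb46 or Kmo without Ly6c2 or Fcgr1 was found in 15 and 133 Sham cells, the reverse in 1 and 15, both in 5 and 13, and neither in 13 and 128.

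The cytokine genes that matter in psoriasis were unevenly detected. Il1b, which encodes interleukin-1 beta, stood at 915 and 1526 CPM in Sham and was found in 10 of 34 and 203 of 289 cells, against 3.24% and 6.29% of keratin-high cells. It stood at 43.1 and 116 CPM in the C1q macrophages and 3429 and 2096 CPM in the Ccr7 cells of the same libraries. Il23a, a subunit of interleukin-23, had 1 and 4 UMIs in all. Il12b, the subunit it pairs with, had none in either library, and stood at 74.2 and 120.5 CPM in Ccr7 cells. Tnf stood at 80.2 and 184 CPM, and Il10 at 0 and 5.99 CPM, below both neighbour sets. Of 16 cytokine genes, 10 had UMIs in Sham 1 and 14 in Sham 2.

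Chemokine genes differed between the sets in Sham. Ccl8, which C1q macrophages carried at 12566 and 8801 CPM, stood at 0 and 3.75 CPM. Ccl4, a chemokine of inflamed tissue, stood at 3374 and 1415 CPM. The T cell attractants Ccl17 and Ccl22 were low, at 4.01 and 55.4 CPM and at 0 and 27.0 CPM, while Ccr7 cells held Ccl22 at 203 and 1997 CPM. Cxcl9 and Cxcl16 lay below both neighbour sets.

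Other lists were read in the same 2 Sham libraries. All 12 genes of the NF-kB feedback list had UMIs, with Traf1, an adaptor of tumour necrosis factor receptors, at 301 and 240 CPM. The costimulation list had 8 and 9 of 9 genes detected, with Cd83 at 401 and 778 CPM and Cd86 at 84.3 and 148 CPM, and none of the 9 lay above or below both neighbour sets in both libraries. Of 14 glycolysis genes, 13 and 14 were detected, and Gpi1 (293 and 243 CPM) and Eno1 (165 and 154 CPM) lay above both neighbours. All 12 cell cycle genes were detected, and Top2a (156 and 112 CPM), Ccnb2 and Rrm2 lay above both neighbours. All 20 interferon-stimulated genes were detected, and none lay above or below both neighbours. Of 14 Toll-like receptor genes 6 and 13 had UMIs, with Tlr2 at 4.01 and 113 CPM.

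The direct targets of the 2 agents were unevenly detected in these cells. Tlr7, the receptor of imiquimod, had 0 and 2 UMIs in the Sham cells and 1 UMI in the treated cells, and stood at 14.4 and 49.8 CPM in C1q macrophages. Ptpn11, which encodes SHP2, had 0 UMIs in Sham 1, a count that allows up to 12.04 CPM, and stood at 50.2 CPM in Sham 2. It stood at 28.8 and 37.8 CPM in C1q macrophages. Among the treated cells it had 1 UMI, in IMQ 1. The related phosphatase Ptpn6 (SHP1) stood at 217 and 130 CPM and the adaptor Grb2 at 209 and 247 CPM. Gab1 and Spred1 were the 2 of 10 genes of the SHP2 pathway list below both neighbour sets.

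The Sham replicates were not alike in state. Across the genes their logarithms had a Pearson correlation of 0.894, a description over genes, which are not replicates. Of 561 genes at 300 CPM or more in either library, 25 were at least 4-fold higher in Sham 2 and 9 at least 4-fold higher in Sham 1, with 10 CPM added to each level. Higher in Sham 1 were the interferon gene Ifnb1 (477 against 11.2 CPM), the interferon-induced genes Ifit2 (373 against 17.2) and Ifit1 (566 against 57.3), Cd7 (774 against 102) and Plac8 (570 against 88.0). Higher in Sham 2 were Lyz1 (0 against 667 CPM), Retnla (0 against 658), Cxcl2 (20.1 against 979), Fn1 (12.04 against 554) and the immediate early gene Egr1 (20.1 against 497).

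**Figure D4:**
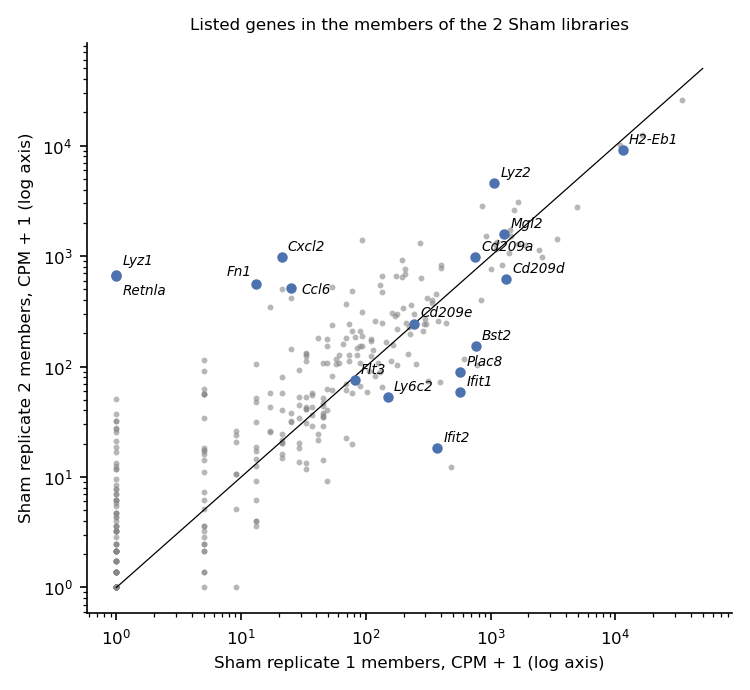
Levels (CPM + 1, log axes) of the listed genes in the Cd209a/Mgl2 cells of Sham 1 (x) and Sham 2 (y). Points are genes and the line marks equal levels. Among the named points Ifit1, Ifit2, Bst2 and Plac8 lie well below the line, and Lyz1, Retnla, Cxcl2, Fn1 and Ccl6 lie far above it.

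Some of these differences came from few cells. In Sham 1, Ifnb1 was found in 6 of 34 cells, and 82 of its 119 UMIs (68.9%) were in 1 cell. A UMI of Ifit1 or Ifit2 was found in 11 of 34 Sham 1 cells (32.4%) and in 39 of 289 Sham 2 cells (13.5%), against 1.30% and 2.64% of keratin-high cells. The plasmacytoid list summed to 1204 CPM in Sham 1 and 409 CPM in Sham 2, while its defining marker Siglech had 3 UMIs in 2 cells and 8 UMIs in 4 cells. Keratinocyte RNA of the Cd209a/Mgl2 cells differed between the replicates too, at 457 and 1478 CPM, with Krt10 at 173 and 662 CPM. The same list went the other way in C1q macrophages (374 and 257 CPM) and in Ccr7 cells (6760 and 224 CPM). The part of the few rich cells and of keratinocyte RNA in the difference between the replicates was not tested.

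Sham 2 held enough cells to look inside. The 64 cells with at least 2 UMIs of Lyz1 carried Lyz2 at 7389 CPM, the macrophage-derived resistin-like gene Retnla at 2187 CPM and fibronectin (Fn1) at 1538 CPM. Retnla was found in 12 of the 64 cells, and without the cell that held 555 of its 1392 UMIs it stood at 1363 CPM. The 205 cells without Lyz1 carried them at 3507, 81.4 and 220.4 CPM. Flt3 went the other way, at 12.6 CPM with Lyz1 and 96.6 CPM without, as did Clec10a (75.4 and 258 CPM), Plac8 (0 and 125 CPM) and Cd209a (621 and 1121 CPM). Mgl2 hardly differed, at 1507 and 1639.7 CPM. Cells with 1 UMI of Lyz1 (20 cells) lay between for Lyz2, Retnla, Fn1, Flt3 and Clec10a.

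Cells with Mgl2 alone carried genes of the Lyz1 cells, and Lyz1 itself at 2344 CPM. The 51 Mgl2-only cells of Sham 2 carried Lyz2 at 9142 CPM, Retnla at 2769.6 CPM, Cxcl2 at 3121 CPM and Flt3 at 18.6 CPM. The 226 cells with both lectins carried them at 3902, 319.8, 658 and 77.2 CPM. Retnla came to 1648 and 65.4 CPM when the cell richest in it was left out of each. The 12 Cd209a-only cells carried Flt3 at 187 CPM, Bcl11a at 400.0, Cd7 at 451, Plac8 at 800.0 and Ly6c2 at 613 CPM, with Retnla at 162 CPM. Without the cell that held 58 of its 72 UMIs, Ly6c2 stood at 129 CPM. Cd209d was nearly confined to cells that also had Cd209a, at 722 CPM with both lectins, 528 CPM with Cd209a alone and 50.5 CPM with Mgl2 alone. The cells were split by their own RNA within 1 library, so no test was made.

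The 13 cells of treated skin can be given 1 by 1. In IMQ 1 the 8 cells held 737 to 14006 UMIs, 0 to 5 UMIs of Cd209a and 0 to 3 of Mgl2. Lyz2 ranged from 0 to 148 UMIs among them and was over 100 in 2. Clec10a was found in 2 of them, with 4 UMIs each, and Flt3 in 3, with 1 UMI each. The cell of IMQ 2 held 19133 UMIs, 16 of Mgl2, 471 of Lyz2 and 13 of the mannose receptor Mrc1. The cell of IMQ+SHP099 1 held 2080 UMIs, with 2 of Cd209a, 7 of Mgl2 and 3 of Ccl17. The 3 cells of IMQ+SHP099 2 held 19022, 4410 and 558 UMIs and 6, 2 and 3 UMIs of Mgl2, and their Langerhans markers summed to 4002 CPM, against 56.2 and 95.5 CPM in Sham. None of the 13 cells had a UMI of Retnla.

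Gene levels in the Cd209a/Mgl2 cells were compared between the groups with edgeR's quasi-likelihood test on UMIs summed per library, which in treated skin are sums over 1 to 8 cells. No gene of 812 tested (0%) passed an adjusted p of 0.05 for IMQ against Sham, for IMQ+SHP099 against IMQ or for IMQ+SHP099 against Sham. At an unadjusted p under 0.05 there were 35, 56 and 51 genes, and DESeq2 called 0, 1 and 0. Of 294 genes on the lists examined, 72 could be tested and none passed in any of the 3 comparisons. With 812 genes tested of 31053 listed, most genes of the cells could not be compared at this depth.

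The values nearest to a call are given without one. For IMQ against Sham, Cd209d had the log2 fold change -6.30 (SE 1.51, edgeR adjusted p = 0.469), with 331 and 1652 UMIs in Sham and 0 and 1 in IMQ. Cd209e, Emp1, Tnip3 and Marcks were the other 4 with the smallest p on the lower side. On the higher side Ifitm3 had 2.27 (SE 0.62, edgeR adjusted p = 0.469), followed by Clec4n at 2.92, Lyz2 at 2.33, Msrb1 at 1.68 and Fxyd5 at 1.25. Il1b stood at 266 and 0 CPM in IMQ against 915 and 1526 in Sham, with the log2 fold change -2.92 (SE 0.89, edgeR adjusted p = 0.665). H2-Eb1 had -0.51 (SE 0.37, edgeR adjusted p = 0.996), and Ptpn6 had -0.06.

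For the effect of SHP099 the members gave no call either. Against IMQ, Ccl4 had the log2 fold change -7.80 and Ifitm3 -2.92 (edgeR adjusted p = 0.516), and Cdh1, a Langerhans and epithelial adhesion gene, had 3.30. Against Sham, Cdh1 had 3.06 and Ccl4 -6.15 (edgeR adjusted p = 0.669). H2-Eb1 had -0.36 (SE 0.39, adjusted p = 0.900) against IMQ and -0.87 (SE 0.39, adjusted p = 0.775) against Sham in the edgeR test. The Ccl4 value in IMQ rests on 1010 UMIs in IMQ 1 and 11 in IMQ 2, and the IMQ+SHP099 side on 4 cells.

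The lectin genes could be followed with more depth in cells that the rule left out. The groups of cells below share the 6 libraries with the Cd209a/Mgl2 cells, and the comparisons were chosen after the values above were known. C1q macrophages numbered 44 and 289 in Sham, 64 and 53 under IMQ, and 29 and 36 under IMQ+SHP099. Mgl2 stood there at 669 and 932 CPM in Sham, 2.01 and 19.8 under IMQ, and 16.4 and 16.6 under IMQ+SHP099. The treated values are 1, 7, 2 and 3 UMIs, and no treated library reached the level of either Sham library.

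Mgl2 fell in C1q macrophages of treated skin. Its log2 fold change was -6.32 (SE 0.66, edgeR adjusted p = 0.00292) for IMQ against Sham and -5.51 (SE 0.69, edgeR adjusted p = 0.00579) for IMQ+SHP099 against Sham. IMQ+SHP099 against IMQ was not called (0.81, SE 0.94, edgeR adjusted p = 1.00). In these cells 12 of 4158 genes (0.289%) passed for IMQ against Sham, 5 higher and 7 lower, and 15 (0.361%) for IMQ+SHP099 against Sham. The call for IMQ+SHP099 was lost without IMQ+SHP099 replicate 2 (log2 fold change -5.52, edgeR adjusted p = 0.148). A UMI of Mgl2 was found in 52.3% and 76.5% of C1q macrophages in Sham and in 1.56%, 3.77%, 6.90% and 5.56% in the treated libraries. Keratin-high cells held one in 1.07% and 3.27% in Sham and in 0 to 0.159% in the treated libraries. The median depth of C1q macrophages was 2696 and 3343 UMIs in Sham, 7323.5 and 6864 under IMQ, and 2934 and 4830.5 under IMQ+SHP099, and that of keratin-high cells 9390 and 13789 in Sham and 25891 to 36895 in the treated libraries.

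**Figure D5:**
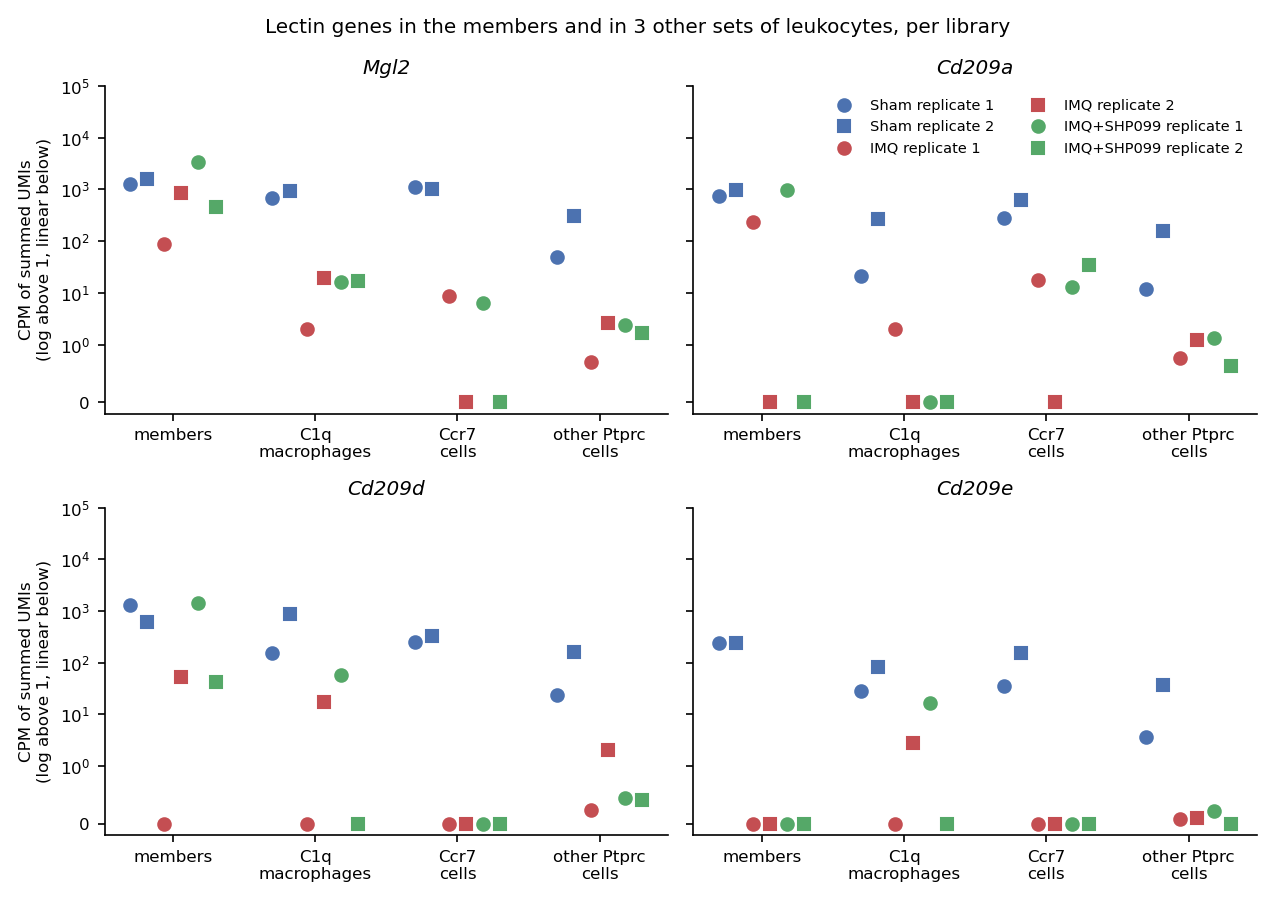
Levels (CPM, linear below 1 and log above) of Mgl2, Cd209a, Cd209d and Cd209e in the Cd209a/Mgl2 cells, C1q macrophages, Ccr7 cells and the other cells with a Ptprc UMI, by library. Points are the summed UMIs of a set in 1 library. In C1q macrophages, Ccr7 cells and other Ptprc cells both Sham libraries lie above the 4 treated libraries for each of the 4 genes.

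The other lectins of the family were followed in the same way. Cd209a stood at 21.6 and 270 CPM in the C1q macrophages of Sham, at 2.01 and 0 under IMQ, and at 0 in both IMQ+SHP099 libraries, and was too low to be tested. Cd209d stood at 151 and 878 CPM in Sham, 0 and 17.0 under IMQ, and 57.4 and 0 under IMQ+SHP099, with the log2 fold change -6.09 for IMQ against Sham (SE 1.14, edgeR adjusted p = 0.0587). Clec10a overlapped, with 165 and 865 CPM in Sham against 54.4, 173, 57.4 and 27.6 in the treated libraries (log2 fold change -2.23 for IMQ against Sham, edgeR adjusted p = 0.282). Of the 7 lectins Cd209a to Cd209e, Mgl2 and Clec10a, 4 lay above all treated libraries in both Sham libraries in these cells, against 466 of the 4158 genes tested (11.2%). The lectins were chosen with their values known, and Cd209a and Mgl2 are genes of the rule. Cd209a was also too low to be among the 4158 genes, so the counts are a description and not a test.

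Ccr7 cells showed the same order at lower depth. They numbered 31 and 72 in Sham, 14 and 16 under IMQ, and 30 and 3 under IMQ+SHP099. Mgl2 stood at 1125 and 999.5 CPM in Sham, 8.79 and 0 under IMQ, and 6.36 and 0 under IMQ+SHP099. Cd209a stood at 277 and 620 CPM in Sham, 17.6 and 0 under IMQ, and 12.7 and 34.5 under IMQ+SHP099. Cd209d and Cd209e had no UMI in the 4 treated libraries, where no count allows up to 9.53 to 104 CPM. Their Sham levels were 254 and 328 CPM for Cd209d and 35.1 and 155 CPM for Cd209e. Of the 7 lectins 5 lay above all treated libraries in both Sham libraries, against 881 of 8785 genes with at least 10 UMIs (10.0%). Cd209b did not reach 10 UMIs here, and the counts are again a description. The Ccr7 cells of Sham 1 also carried the keratin Krt10 at 2343 CPM, against 30.7 in Sham 2, and its part was not tested.

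Over all cells with a Ptprc UMI outside the rule, Mgl2 stood at 50.3 and 306 CPM in Sham, 0.692 and 2.67 under IMQ, and 2.44 and 1.66 under IMQ+SHP099. Cd209a stood at 11.8 and 154 CPM in Sham, 0.768 and 1.24 under IMQ, and 1.33 and 0.621 under IMQ+SHP099. The 2 Sham libraries differed from each other by more than the treated libraries did. The log2 fold change of Mgl2 for IMQ against Sham was -6.45 (SE 1.06) and did not pass (edgeR adjusted p = 0.400), and that of Cd209a was -6.04 (SE 1.22, edgeR adjusted p = 0.400). No gene of 13872 passed here for IMQ against Sham (0%), with 1416 at an unadjusted p under 0.05, while DESeq2 called 415 and gave Mgl2 an adjusted p of 2.17e-10. As a description, 5 of the 7 lectins lay above all treated libraries in both Sham libraries, against 2549 of 15978 genes with at least 10 UMIs (16.0%). The makeup of these cells differed between libraries, and its part was not tested.

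In Sham the lectin RNA was shared between the sets. The Cd209a/Mgl2 cells held 56.4% and 62.4% of all Cd209a UMIs of kept cells and 31.7% and 56.2% of all Mgl2 UMIs. Summed over all kept cells, Cd209a had 330 and 4199 UMIs in Sham, 27 and 14 under IMQ, and 11 and 4 under IMQ+SHP099. Mgl2 had 1006 and 7550 UMIs in Sham, 21 and 59 under IMQ, and 28 and 22 under IMQ+SHP099. Both genes thus had fewer UMIs in every treated library than in either Sham library, over all cells kept.

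The effect of IMQ in the Cd209a/Mgl2 cells was set against that in C1q macrophages as an interaction in 1 fit over both kinds of sum. Of 3421 genes 10 passed (0.292%), 4 higher and 6 lower in the Cd209a/Mgl2 cells relative to C1q macrophages, at an all-gene median of -0.20 on the log2 scale. Il1b had 228 and 4073 UMIs in the Sham Cd209a/Mgl2 cells and 18 and 0 in the IMQ ones, while C1q macrophages had 6 and 135 UMIs in Sham and 204 and 49 in IMQ. Its interaction was -4.95 on the log2 scale. The 0 of IMQ 2 comes from 1 cell. In Sham 1 only 10 of 34 cells held a UMI of Il1b, so a 0 in 1 cell does not repeat the lower level of IMQ 1. The interferon-induced gene Rsad2 had the interaction 5.49, with 13 and 162 UMIs in Sham and 53 and 1 in IMQ, against 60 and 1016 and then 42 and 45 in C1q macrophages. Relative to all UMIs, the 1 cell of IMQ 2 lay between the 2 Sham libraries, so only IMQ 1 was higher. The C1q macrophages of both IMQ libraries lay below those of both Sham libraries, which is also part of this value. Mgl2, a gene of the rule, was among the 4 higher, at 4.26 (SE 1.00). Cd209a/Mgl2 cells had to hold UMIs of the pair in every group and C1q macrophages did not. The value of Mgl2 is therefore set in part by the selection and is not a test. No gene passed without IMQ replicate 1, which holds 8 of the 9 IMQ cells, or without Sham replicate 2, and 5 passed without IMQ replicate 2.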

How the data were processed

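Dorsal skin was profiled with 10x 3' single-cell RNA-sequencing in 6 libraries, 2 per group. Per the labels and the submitters' processing notes, the authors aligned reads to GRCm38 (mm10) with Cell Ranger and deposited 1 matrix of UMI counts per library, with no normalization. Barcodes at or over 100000 UMIs, 6500 genes or 10% mitochondrial UMIs were dropped (leaving 50850 of 55201 barcodes, with 31053 genes listed), and the stated rule was applied to each. The cells and gene lists were chosen with earlier results of these data known. CPM values are UMIs of a gene over all UMIs of a set of cells in 1 library. Summed counts were tested with edgeR 4.0.16 (quasi-likelihood, TMM, filterByExpr, all 3 groups in 1 fit, Benjamini-Hochberg adjustment over all genes tested) in R 4.3.3. DESeq2 1.42.0, RLE scaling, no filter, other limits of the rule, a replicate block and leaving out each library were alternatives. The code was tested on simulated data. Shares were compared with exact permutation tests (scipy 1.17.1), and p-values measure only the spread between libraries of pooled mice. Intervals (95%, Clopper-Pearson) and the limit for a count of 0 (3 counts) cover counting error only. Doublets were called with Scrublet (scanpy 1.11.5), which called none in the 3 replicate 1 libraries and so did not work there. It called 135, 322 and 133 cells in the others, 2 of them Cd209a/Mgl2 cells, and none was removed. Genes were named if they passed an adjusted p of 0.05, had a mean of at least 50 CPM in the higher group, had libraries that did not overlap and were not in the rule, up to 12 per direction, or 6 for the interaction. Where fewer than 5 passed, those with the smallest p filled up to 5 and are given without a call. A further 15 genes were always tested for, of which 4 passed the filter on low counts, and other genes were named after their values were seen. The fits in C1q macrophages and in other Ptprc cells, and levels without the cell richest in a gene, were added after the data had been seen.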

Additional observations from a re-analysis of the deposited data

Results flagged for a closer look

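In 9 genes outside the rule the IMQ effect in the Cd209a/Mgl2 cells differed from that in C1q macrophages in the edgeR interaction test, and the values are log2 differences of the effects. They rest on 9 IMQ cells, 8 of them in IMQ replicate 1, and no gene passed without that library. The size of a value where a library holds no UMI depends on the prior count and is no bound.

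Il1b had -4.95, and the mouse chitinase-like gene Chil3 had -15.32, from 0 and 14 UMIs in Sham and none in IMQ in the Cd209a/Mgl2 cells against 0 and 0 and then 417 and 22 UMIs in C1q macrophages. The interferon-induced genes Rsad2, Ly6a and Rtp4 had 5.49, 5.41 and 3.86. Ly6a turned to -4.83 without IMQ replicate 1. Apod had -10.48, from 101 and 471 UMIs in Sham and none in IMQ in the Cd209a/Mgl2 cells. The histone genes Hist1h2ae and Hist1h2ap had -10.29 and -9.78, with no UMI in the IMQ cells of either library. Basp1 had -4.13, from 78 and 627 UMIs in Sham and 3 and 0 in IMQ, against 48 and 88 and then 162 and 123 in C1q macrophages.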

How the results depend on the processing

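The shares of kept cells, of Ptprc cells and of class II-high, C1q-low cells stayed lower in both treated groups than in Sham, with no overlap, under all 10 alternatives tried for each. With 1 library left out, the difference among kept cells ran from -3.45 to -0.339 percentage points for IMQ and from -3.49 to -0.370 for IMQ+SHP099. IMQ+SHP099 against IMQ had no stable sign. With 1 library left out it ran from -0.0782 to 0.0164 percentage points among kept cells, from -0.252 to 0.126 among Ptprc cells and from -2.22 to 5.76 among class II-high, C1q-low cells, and the ends were without an IMQ library. It was 0.0445 among Ptprc cells with at least 4 UMIs of the pair and -0.970 among class II-high, C1q-low cells after thinning. On the log2 scale it ran from -0.17 to 2.92 for Mgl2 in C1q macrophages, from -0.33 to 1.58 for Mgl2 in other Ptprc cells and from -0.64 to 0.46 for Cd209a there, which was -0.012 without a filter and -0.0083 with only the 2 groups. Rpl41 in the Cd209a/Mgl2 cells ran from -0.22 to 1.28, and the Ly6a interaction from -4.83 without IMQ replicate 1 to 7.03.

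Counts of genes called in the Cd209a/Mgl2 cells were 11 for IMQ against Sham, 3 for IMQ+SHP099 against IMQ and 4 for IMQ+SHP099 against Sham without a filter. With 1 library left out they ran from 0 to 3, 0 to 1 and 0 to 1, with the 3 without Sham replicate 1, and DESeq2 called 1 for IMQ+SHP099 against IMQ. With only the 2 groups, 1 was called for IMQ+SHP099 against Sham. In C1q macrophages the counts for IMQ against Sham and IMQ+SHP099 against Sham were 159 and 159 without a filter and 22 and 52 with DESeq2. With 1 library left out they ran from 8 to 225 and from 6 to 294, highest without Sham replicate 1. They were also 22 without IMQ replicate 2 for IMQ, and 6 without Sham replicate 2 or IMQ+SHP099 replicate 2 and 25 without IMQ+SHP099 replicate 1 for IMQ+SHP099. IMQ+SHP099 against IMQ there gave 15 without a filter. In other Ptprc cells they were 83 and 21 without a filter and 415 and 200 with DESeq2. DESeq2 called 2 genes in the interaction, and leaving out 1 library gave 0 to 13. The causes were not tested. Mgl2 in other Ptprc cells passed for IMQ against Sham without a filter (-6.45) and with DESeq2 (-6.43), and for IMQ+SHP099 against Sham in the same settings (-6.12 and -6.08). Cd209a passed there for IMQ without a filter (-6.04) and with DESeq2 (-6.02), and for IMQ+SHP099 with DESeq2 (-6.01).

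The replicate numbers shared by the groups name no common animal or day. The correlations of same-numbered libraries' deviations ran from -0.0960 to 0.142 over the 3 pairs of groups in the Cd209a/Mgl2 cells, from -0.00867 to 0.201 in C1q macrophages and from 0.318 to 0.476 in other Ptprc cells. With only 2 numbers per group and no label that ties them, the numbers were not read as pairs, though in other Ptprc cells same-numbered libraries did deviate together. With the replicate block, 0, 1 and 1 genes were called in the Cd209a/Mgl2 cells, 22 and 56 in C1q macrophages for IMQ and IMQ+SHP099 against Sham and 128 in other Ptprc cells for IMQ against Sham, where Mgl2 passed (-6.35).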
